A study of Homo sapiens with 30 samples.

Results

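The proteasome is the main ATP-dependent protease of the cell. Its 20S core is a barrel in which rings of alpha subunits (PSMA genes) form the gates and rings of beta subunits (PSMB genes) hold the peptide-cutting sites. The 19S cap, made of a base (PSMC ATPases with PSMD1, PSMD2, PSMD4 and ADRM1) and a lid (the other PSMD subunits), captures ubiquitin-tagged proteins, unfolds them and feeds them into the core. Each subunit has its own gene, and these genes are known to be induced together by the transcription factor NFE2L1 when proteasome capacity falls. The mRNAs of the constitutive subunits were chosen by symbol from a list of 32, of which 30 were found among the 16009 genes measured. They are 14 subunits of the 20S core, namely 7 alpha, 4 structural beta and 3 catalytic beta subunits, and 16 of the 19S cap, namely 6 base ATPases, 3 other base subunits and 7 lid subunits. PSMD2 and PSMD14 were not analysed here.

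The libraries come from MEL624, a human melanoma cell line, with a knockout (KO) of PCIF1 or, as control, wild-type cells that received a random sgRNA. PCIF1 is the methyltransferase that makes the mark m6Am on mRNAs whose first base, beside the cap, is an adenosine. In m6Am-Exo-Seq, capped 5' end fragments are kept by exonuclease digestion and pulled down with an antibody to m6A, which also binds m6Am. Each genotype has 3 immunoprecipitated libraries (KO IP, control IP), all made with 1 mouse monoclonal antibody, and 3 libraries of the fragments before pull-down (KO input, control input), which gives 12 libraries, while 18 single libraries of an antibody trial were not analysed here. Per the design text the 3 libraries of a group are biological replicates, but whether KO libraries share a clone is not given in the sources used here, and an effect of the KO cannot be told apart from one of a clone.

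The start regions drew 1753164 to 2177874 reads in KO IPs, 2836120 to 3544669 in KO inputs, 4035815 to 4625190 in control IPs and 3232562 to 4094070 in control inputs. A subunit had between 20 reads (ADRM1, in a KO IP) and 4553 reads (PSMB4, in a control IP) per library. The third KO input stood farthest from its replicates, with a chi-square per gene of 5.09 and 4.64 against the other KO inputs, while other pairs of replicates ranged from 2.0 to 4.02. PCIF1 itself had 35.4, 41 and 28.7 CPM in KO IPs and 70.4, 78 and 77.1 CPM in KO inputs, against 30.1, 23.7 and 26 CPM in control IPs and 57.8, 52.5 and 49.4 CPM in control inputs. In log2 units, its start fragments were 0.50 ± 0.14 higher in KO inputs (adjusted p = 0.0229), and since they lie at the 5' end, they do not check the edit. Of 8 melanocyte lineage markers only MITF is in the table, and of the markers of other cell types only PDGFRB (1 of 3 fibroblast markers) and CD68 (1 of 3 leukocyte markers), with 0 of 3 keratinocyte and 0 of 3 endothelial markers; the remaining markers were not analysed here.

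The values are deposited log2 CPM, the logarithm of library-scaled read numbers around each gene's transcription start, and CPM values below are these turned back to a linear scale. Enrichment is the log2 difference between IP and input of a genotype. The enrichment difference is KO enrichment minus control enrichment, so that a negative value means less pull-down in KO cells relative to input. Differences are given ± SE from 1 limma fit over 12 libraries with 3 per group, and a call means an adjusted p (Benjamini-Hochberg) under 0.05 over all 16009 genes. The p-values set each difference against the spread between replicate libraries, which the fit pools over the 4 groups and moderates by a trend over all genes.

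The start sequences below are those of the 4 called subunits with the most negative and the 4 with the most positive enrichment difference, and they show the annotated first base, since PCIF1 acts on the base next to the cap. Each runs 5' to 3' from 20 bases before the start to the tenth transcribed base (RefSeq, GRCh38.p14), and the capital marks the first transcribed base. The first 4 belong to subunits less enriched in KO cells.
PSMA5, chr1:109426439-109426468, minus strand: gaggtcgcggtcgcacgcgcAgttggtcct
PSMB4, chr1:151399553-151399582, plus strand: caagcgctttcattttttctGctaccgtga
PSMD13, chr11:236956-236985, plus strand: gctcggcgccggaagtgagtGagcatttcc
PSMD8, chr19:38374551-38374580, plus strand: caacttccggtcaccatcttGagtgacgac
The other 4 belong to subunits more enriched in KO cells.
PSMA2, chr7:42932165-42932194, minus strand: catgtgtgcggctgtgctttGgctcttcgg
PSMC6, chr14:52707180-52707209, plus strand: ggccattcccggcatcccctAtgagagacg
PSMB2, chr1:35641517-35641546, minus strand: cgtgctgcaggcgtcgcgccAatcttcgct
PSMC1, chr14:90256533-90256562, plus strand: cgcctctggcgggccgcagtGgtggaggaa
Among the 4 less enriched in KO cells, 1 starts with A, and among the 4 more enriched, 2 do. These 8 were picked by their values. The counts by first base over all subunits and protein-coding genes are given further below.

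The 2 particles parted in the pull-down. The 14 core mRNAs summed to 1926 ± 65.9 CPM in KO IPs and 2861 ± 217 CPM in KO inputs, against 3826 ± 101 CPM in control IPs and 2837 ± 148 CPM in control inputs (SD, n = 3 each). The core sum thus lay below its input in KO cells and above its input in control cells, with no overlap between the libraries. The 16 cap mRNAs summed to 2950 ± 65.1 CPM in KO IPs and 2361 ± 128 CPM in KO inputs, against 2972 ± 69.5 CPM in control IPs and 2208 ± 122 CPM in control inputs (SD, n = 3 each). The cap sum lay above its input in both genotypes, and its IP libraries overlapped between genotypes. For both particles, these positions depend on how the libraries are scaled. With the libraries centred on 77 ribosomal protein mRNAs, the median KO enrichment of all genes was 0.55, against -0.07 as deposited. The median of KO IPs minus control IPs was -0.57, against -0.04. The sums were not recomputed with that scaling. The sums also give most weight to mRNAs with many reads, so that they do not describe every member. PSMB4 alone averaged 1111 CPM in control IPs and 379 CPM in control inputs. PSMA7 averaged 319 CPM in KO IPs and 895 CPM in KO inputs. In the cap, PSMC2 averaged 517 CPM in KO IPs and 84.1 CPM in KO inputs, against 537 CPM in control IPs and 89.6 CPM in control inputs. These sums are descriptions of the chosen members and carry no test, and in such bulk libraries fewer cells with an mRNA and less of it per cell cannot be told apart.

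**Figure D1:**
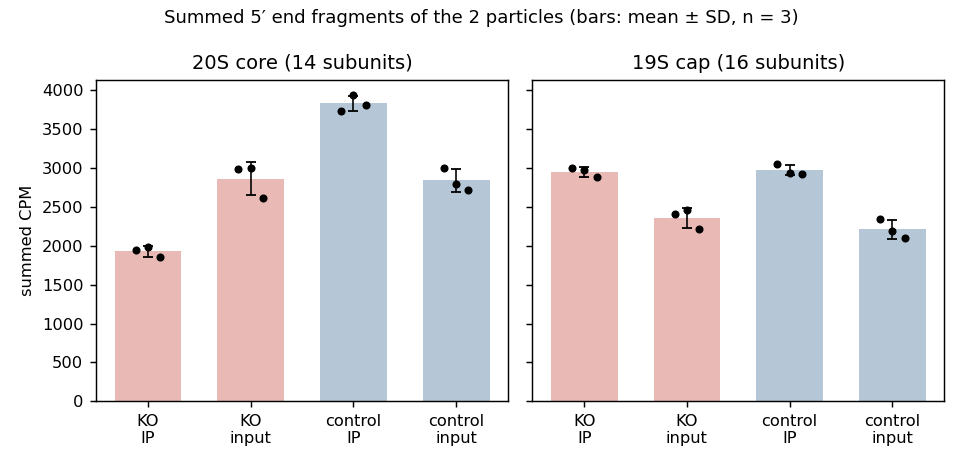
Summed CPM (y axis) of the start fragments of the 14 core and 16 cap subunits in KO IP, KO input, control IP and control input libraries; bars show the mean, whiskers the SD of 3 libraries and dots the single libraries. The core sum is 1926 CPM in KO IPs and 3826 CPM in control IPs, while the cap sums are 2950 and 2972 CPM.

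The design asks which 5' ends lose pull-down without PCIF1. In the enrichment difference, 20 of 30 subunits were called, 7 higher and 13 lower, against 28.8% of all genes (13% higher, 15.8% lower). Genes with few reads are called less often. Of the 9646 genes with a mean log2 of at least 3, which include all 30 subunits, 1734 were called higher and 2596 lower when fitted alone. Of the core, 2 of 14 were called higher and 10 lower, with a median of -0.73. Of the cap, 5 of 16 were called higher and 3 lower, with a median of 0.04. The median over all genes was -0.06 and over 12047 protein-coding genes -0.18. The difference between the particle medians, core minus cap, was -0.77, and the difference between their means was -0.50. Core minus cap cannot move with the scaling of the libraries, which shifts both particles alike. Scaling does move the median of each particle and the values of single subunits. With the libraries centred on 77 ribosomal protein mRNAs, the median of all genes in the enrichment difference shifted to -0.62. In that setting 3 subunits were called higher and 22 lower, so that the cap median near 0 holds for the deposited scaling only.

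**Figure D2:**
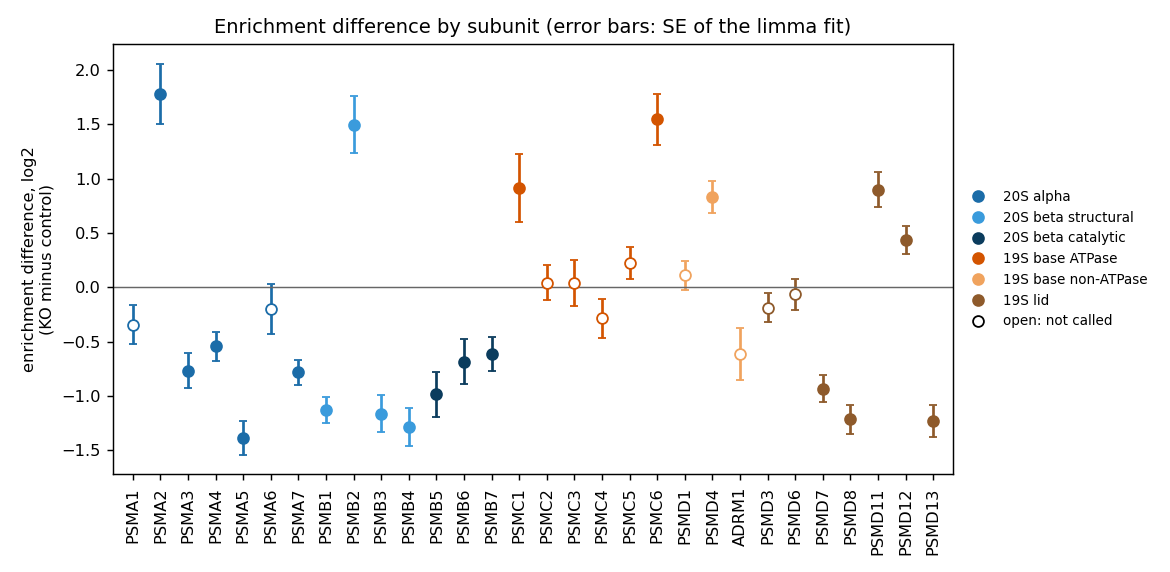
Enrichment difference (KO minus control, log2, y axis) of the 30 subunits on the x axis, coloured by role; bars are SE of the limma fit and open circles mark subunits that were not called. The beta subunits other than PSMB2 lie between -1.28 and -0.61, while the base ATPases lie between -0.29 and 1.54.

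Among the alpha subunits, which form the outer rings and the gate of the core, 4 of 7 were less enriched in KO cells and PSMA2 was more enriched. PSMA5 had 121, 146 and 172 CPM in KO IPs and 276, 279 and 239.8 CPM in KO inputs, against 350.1, 389.7 and 385 CPM in control IPs and 274, 272 and 241 CPM in control inputs. All 3 KO IPs lay below every other library, and the control IPs lay above all inputs. Its enrichment difference was -1.38 ± 0.16 (adjusted p = 2.72e-06), a 2.61-fold loss. PSMA7 had 303, 316 and 338 CPM in KO IPs and 871, 902 and 911 CPM in KO inputs, against 447, 428 and 441 CPM in control IPs and 711, 704 and 729 CPM in control inputs. It was below its input in both genotypes and farther below it in KO cells, with a difference of -0.78 ± 0.11. PSMA4 had 269, 291 and 248 CPM in KO IPs and 106, 105 and 102 CPM in KO inputs, against 366, 452 and 412 CPM in control IPs and 103, 114 and 109 CPM in control inputs. It stayed above its input in both genotypes, and its enrichment was lower in KO cells, with a difference of -0.54 ± 0.14 (adjusted p = 0.00495). PSMA3 had a difference of -0.77 ± 0.16, with 34.7 ± 1.87 CPM in KO IPs and 40.3 ± 3.4 CPM in KO inputs, against 70.6 ± 5.05 CPM in control IPs and 48 ± 1.47 CPM in control inputs (SD, n = 3 each). PSMA1 (-0.34 ± 0.18) and PSMA6 (-0.20 ± 0.23) did not pass the test.

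PSMA2 went the other way. It had 34.4, 32.2 and 27.6 CPM in KO IPs and 44, 49.6 and 46.5 CPM in KO inputs, against 6.13, 12.4 and 8.2 CPM in control IPs and 50.3, 43.1 and 38.9 CPM in control inputs. The control IPs were lowest, the KO IPs lay between them and the inputs, and these 3 levels did not overlap. Its enrichment difference of 1.78 ± 0.28 (adjusted p = 7.34e-05) was the highest of the 30 subunits. These values rest on 26 to 47 reads in control IPs, and the start is shared with the gene ENSG00000256646 on the same strand, which had identical reads in 5 of 12 libraries and a difference of 1.86. The reads of the 2 genes cannot be told apart.

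All 7 beta subunits were called in the enrichment difference, 6 of them lower. The catalytic subunits PSMB5, PSMB6 and PSMB7 carry the active sites of the core. PSMB5, the chymotrypsin-like subunit and the main target of bortezomib, had 160.5, 128 and 113 CPM in KO IPs and 238, 197 and 147 CPM in KO inputs, against 375, 339 and 327 CPM in control IPs and 275, 250.3 and 232 CPM in control inputs. Its KO IPs lay below all control libraries, and its control IPs lay above all inputs. Its enrichment difference was -0.99 ± 0.20 (adjusted p = 0.00112). PSMB6, the caspase-like subunit, had 96.7, 117 and 93.9 CPM in KO IPs and 117, 116 and 81.9 CPM in KO inputs, against 197, 184 and 195 CPM in control IPs and 154, 117 and 99.3 CPM in control inputs. Its KO IPs lay within the range of the inputs and its control IPs above all of them. The difference of -0.68 ± 0.21 (adjusted p = 0.0191) was no longer called without the third control input (-0.54, adjusted p = 0.0678), the first KO input (-0.60, adjusted p = 0.0581) or the second KO input (-0.60, adjusted p = 0.0592). PSMB7, the trypsin-like subunit, had 129, 117 and 115 CPM in KO IPs and 294, 303 and 231 CPM in KO inputs, against 188, 193 and 178 CPM in control IPs and 322, 255 and 259.5 CPM in control inputs. Both sets of IPs lay below all inputs, the KO IPs lowest, with a difference of -0.61 ± 0.16 (adjusted p = 0.00645).

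Of the structural beta subunits, PSMB4 had 383, 414 and 364 CPM in KO IPs and 364, 371 and 245 CPM in KO inputs, against 1022, 1157 and 1156 CPM in control IPs and 406, 369.9 and 361 CPM in control inputs. The control IPs stood far above all other libraries, and the KO IPs overlapped the inputs. Its enrichment difference was -1.28 ± 0.18 (adjusted p = 2.00e-05), a 2.44-fold loss. PSMB1 (-1.13 ± 0.12) and PSMB3 (-1.16 ± 0.17) were lower by similar amounts. PSMB1 averaged 213 ± 13.7 CPM in KO IPs and 311 ± 16.1 CPM in KO inputs, against 471 ± 23.6 CPM in control IPs and 314 ± 8.62 CPM in control inputs (SD, n = 3 each). PSMB2 was the exception, with 49.1, 45.9 and 37.3 CPM in KO IPs and 29.1, 23.1 and 17.3 CPM in KO inputs, against 23.1, 17.7 and 28.3 CPM in control IPs and 32.9, 31.7 and 34.5 CPM in control inputs. Its KO IPs were the highest libraries and its control IPs lay below the control inputs. The enrichment difference was 1.5 ± 0.27 (adjusted p = 2.72e-04).

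**Figure D3:**
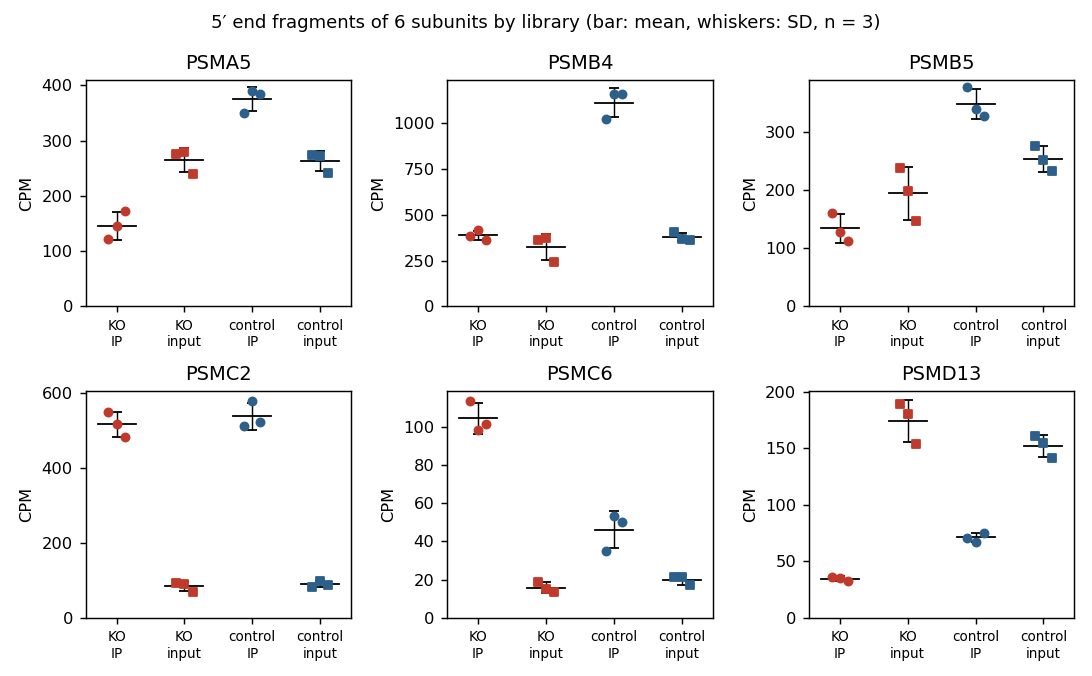
CPM (y axis, from 0) of PSMA5, PSMB4, PSMB5, PSMC2, PSMC6 and PSMD13 in the 3 libraries of KO IP, KO input, control IP and control input; lines are means and whiskers SD. The KO IPs of PSMA5 (121 to 172 CPM), PSMB4 and PSMB5 lie below their control IPs, those of PSMC6 lie above them, and those of PSMC2 overlap them.

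The base ATPases PSMC1 to PSMC6 form the ring that unfolds substrates, and none of them was called less enriched in KO cells. Of 6, 2 were called more enriched in KO cells and 0 less, with a median difference of 0.13. PSMC6 had 114, 98.4 and 101 CPM in KO IPs and 18.7, 15.2 and 13.4 CPM in KO inputs, against 35, 53.6 and 50.1 CPM in control IPs and 21.6, 21.4 and 17 CPM in control inputs. The KO IPs were highest, the control IPs lay between them and the inputs, and no library overlapped between these levels. Its difference was 1.54 ± 0.24 (adjusted p = 6.37e-05). PSMC1 had 50.6, 52.2 and 80.8 CPM in KO IPs and 9.26, 9.28 and 13.4 CPM in KO inputs, against 19.6, 28.7 and 32.8 CPM in control IPs and 9.21, 9.47 and 7.66 CPM in control inputs, in the same order. Its difference of 0.92 ± 0.31 rests on 26 to 41 reads in the inputs and was barely called (adjusted p = 0.0333). It was not called when 1 of 6 libraries was left out: control input 1 (0.88, adjusted p = 0.0647), control input 2 (0.86, adjusted p = 0.0742), KO input 1 (0.83, adjusted p = 0.0793), KO input 2 (0.83, adjusted p = 0.0803), control IP 1 (0.70, adjusted p = 0.107) or KO IP 3 (0.70, adjusted p = 0.0907). PSMC1 also has 13 annotated pseudogenes, 1 of them in the table. The other ATPases, PSMC2 (0.04 ± 0.16), PSMC3 (0.04 ± 0.21), PSMC4 (-0.29 ± 0.18) and PSMC5 (0.22 ± 0.14), did not pass the test. With the libraries centred on ribosomal protein mRNAs, PSMC2, PSMC3 and PSMC5 turned negative (-0.52, -0.53 and -0.34), the first 2 of them called, while PSMC6 kept its direction.

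Among the other base subunits, the ubiquitin receptor PSMD4 was more enriched in KO cells by 0.83 ± 0.15 (adjusted p = 2.39e-04). It averaged 222 ± 28.9 CPM in KO IPs and 134 ± 9.22 CPM in KO inputs, against 116 ± 3.32 CPM in control IPs and 126 ± 11 CPM in control inputs (SD, n = 3 each). The scaffold subunit PSMD1 (0.11 ± 0.13) and the ubiquitin receptor ADRM1 (-0.61 ± 0.24) were not called. ADRM1 was called without the second KO IP (-0.71, adjusted p = 0.0349).

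The 7 lid subunits, scaffold proteins around the deubiquitinase of the cap, went both ways, with 2 called higher and 3 lower. PSMD13 had 36.4, 35.1 and 32.1 CPM in KO IPs and 189, 180 and 153 CPM in KO inputs, against 70.9, 67.2 and 75 CPM in control IPs and 160.5, 155 and 141 CPM in control inputs. Both sets of IPs lay below all inputs, the KO IPs lowest, with a difference of -1.23 ± 0.15 (adjusted p = 4.85e-06). PSMD8 had 151, 150.1 and 131 CPM in KO IPs and 444, 492 and 433 CPM in KO inputs, against 336, 287 and 314 CPM in control IPs and 449, 431 and 399 CPM in control inputs. The order of the libraries was the same, and the difference was -1.21 ± 0.13 (adjusted p = 1.57e-06). PSMD7, the partner of the deubiquitinase PSMD14, was also less enriched in KO cells, with a difference of -0.93 ± 0.12. PSMD11 (0.90 ± 0.16) and PSMD12 (0.44 ± 0.13) were more enriched, and PSMD3 (-0.19 ± 0.14) and PSMD6 (-0.06 ± 0.14) were not called. PSMD12 had 190.4, 206 and 220.4 CPM in KO IPs and 99.9, 101 and 115 CPM in KO inputs, against 185, 188 and 181 CPM in control IPs and 127, 124 and 134 CPM in control inputs. Its IPs lay above all inputs in both genotypes, and with the libraries centred on ribosomal protein mRNAs its difference turned to -0.13.

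Within each genotype, most subunit 5' ends were called above or below their input. In KO cells 12 of 30 subunits were called enriched and 13 called depleted, against 59.4% of all genes (28.4% enriched, 31% depleted). In control cells 18 were called enriched and 10 depleted, against 55.9% of all genes (27.7% enriched, 28.2% depleted). These shares rise among genes with more reads. Of the 9646 genes with a mean log2 of at least 3, fitted alone, 3271 were called enriched and 3893 depleted in KO cells. In control cells 3682 of them were called enriched and 3378 depleted. The core held 2 enriched and 8 depleted subunits in KO cells and 8 enriched and 5 depleted in control cells. The cap held 10 enriched and 5 depleted subunits in KO cells and the same numbers in control cells. Medians of the core were -0.54 in KO cells and 0.49 in control cells, and medians of the cap 0.63 in KO cells and 0.45 in control cells. Over all genes they were -0.07 in KO cells and -0.01 in control cells. Centred on ribosomal protein mRNAs, the median of all genes shifted to 0.55 in KO enrichment and 1.17 in control enrichment, and the depleted subunits numbered 7 in KO cells and 2 in control cells.

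**Figure D4:**
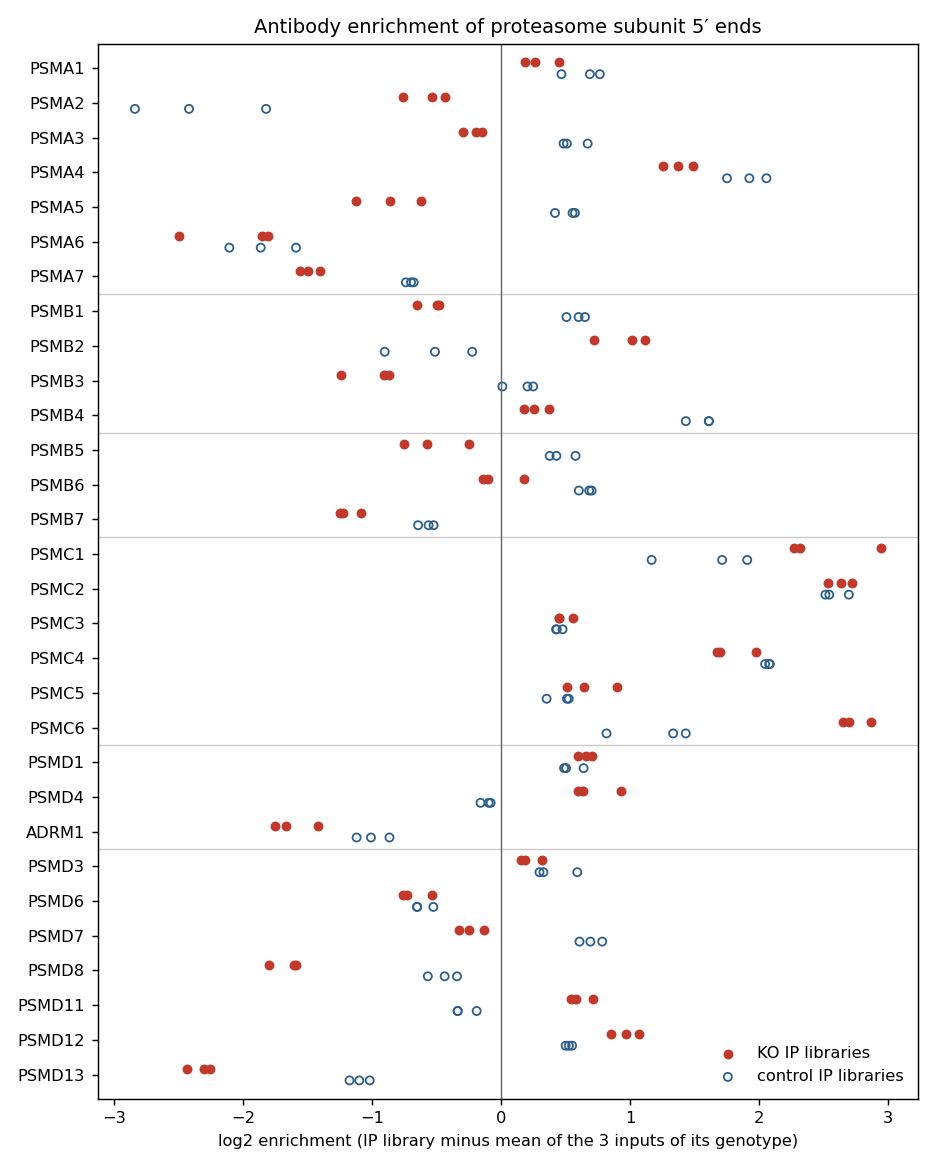
Log2 enrichment (x axis) of each IP library over the mean of the 3 inputs of its genotype, with the 30 subunits down the page in groups by role (alpha, structural beta, catalytic beta, base ATPases, other base subunits, lid). Filled points are KO IPs and open points control IPs. On the deposited scaling, the ATPases lie above 0 in all 6 IP libraries. On the same scaling, PSMA5, PSMB1 and PSMB5 lie below 0 in KO IPs and above 0 in control IPs.

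All 6 ATPases were enriched in both genotypes, their medians being 2.15 in KO cells and 1.40 in control cells. PSMC2 had 549, 517 and 483 CPM in KO IPs and 92.5, 91.3 and 68.6 CPM in KO inputs, against 511, 579 and 522 CPM in control IPs and 82, 98.6 and 88.2 CPM in control inputs. Each IP lay above every input, and KO IPs overlapped control IPs. It was enriched by 2.63 ± 0.11 in KO cells and 2.59 ± 0.11 in control cells, which was the highest control enrichment of the 30 subunits. PSMC6 had the highest KO enrichment, 2.74 ± 0.17, against 1.19 ± 0.17 in control cells. PSMC4 had 143, 116 and 118 CPM in KO IPs and 41.4, 35.3 and 32.9 CPM in KO inputs, against 145, 149 and 149 CPM in control IPs and 42, 31.9 and 32.5 CPM in control inputs, again with all IPs above all inputs. Besides the ATPases, PSMA4, PSMD1 and PSMD12 were enriched in both genotypes, which makes 9 subunits, against 19% of all genes.

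In both genotypes 8 subunits were depleted, namely PSMA2, PSMA6, PSMA7, PSMB7, ADRM1, PSMD6, PSMD8 and PSMD13, against 19.1% of all genes. PSMD13 had the lowest KO enrichment, -2.33 ± 0.10, against -1.1 ± 0.10 in control cells. PSMA6 had 45.2, 43.9 and 28.1 CPM in KO IPs and 175, 161 and 142 CPM in KO inputs, against 44.6, 53.9 and 37.6 CPM in control IPs and 178, 159.8 and 149.8 CPM in control inputs. Its IPs lay far below its inputs in both genotypes and overlapped each other. A switch of side was called for 6 subunits. PSMA5, PSMB1, PSMB5 and PSMD7 were depleted in KO cells and enriched in control cells, a pattern of 1.54% of all genes. PSMB2 and PSMD11 were enriched in KO cells and depleted in control cells, a pattern of 1.31%. These sides hold for the deposited scaling. Centred on ribosomal protein mRNAs, KO enrichment turned positive for PSMB1 (0.072), PSMB5 (0.093) and PSMD7 (0.38). Control enrichment turned positive for PSMB2 (0.64) and PSMD11 (0.90), so that of the 6 only PSMA5 kept both signs. Of the 8 subunits depleted in both genotypes, all but PSMA6 turned positive in control or KO cells.

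Several of these calls were close to the threshold and were lost without 1 library. In KO cells, PSMD7 was not called without KO input 2 (-0.20, adjusted p = 0.0945), KO IP 1 (-0.23, adjusted p = 0.0521) or KO IP 3 (-0.19, adjusted p = 0.0799), PSMA2 without KO input 2 (-0.53, adjusted p = 0.0572) or KO IP 3 (-0.49, adjusted p = 0.0574), and PSMC3 without KO input 3 (0.32, adjusted p = 0.0637). In control cells, PSMB5 was not called without control input 3 (0.40, adjusted p = 0.0513) or control IP 1 (0.40, adjusted p = 0.0502), PSMB2 without control input 3 (-0.51, adjusted p = 0.0585) or control IP 2 (-0.37, adjusted p = 0.129), and PSMC3 without control input 2 (0.39, adjusted p = 0.0642) or control input 3 (0.33, adjusted p = 0.0971). PSMD11 was not called in control cells without control input 1 (-0.20, adjusted p = 0.189), control input 2 (-0.26, adjusted p = 0.107), control IP 2 (-0.26, adjusted p = 0.105) or control IP 3 (-0.26, adjusted p = 0.103). PSMA1 was called in KO cells without control input 1 (0.30, adjusted p = 0.0493), KO input 1 (0.37, adjusted p = 0.0361) or KO IP 2 (0.36, adjusted p = 0.0412), PSMB4 without KO input 1 (0.36, adjusted p = 0.0327) or KO input 2 (0.37, adjusted p = 0.025), and PSMD3 without control IP 1 (0.22, adjusted p = 0.0418).

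**Figure D5:**
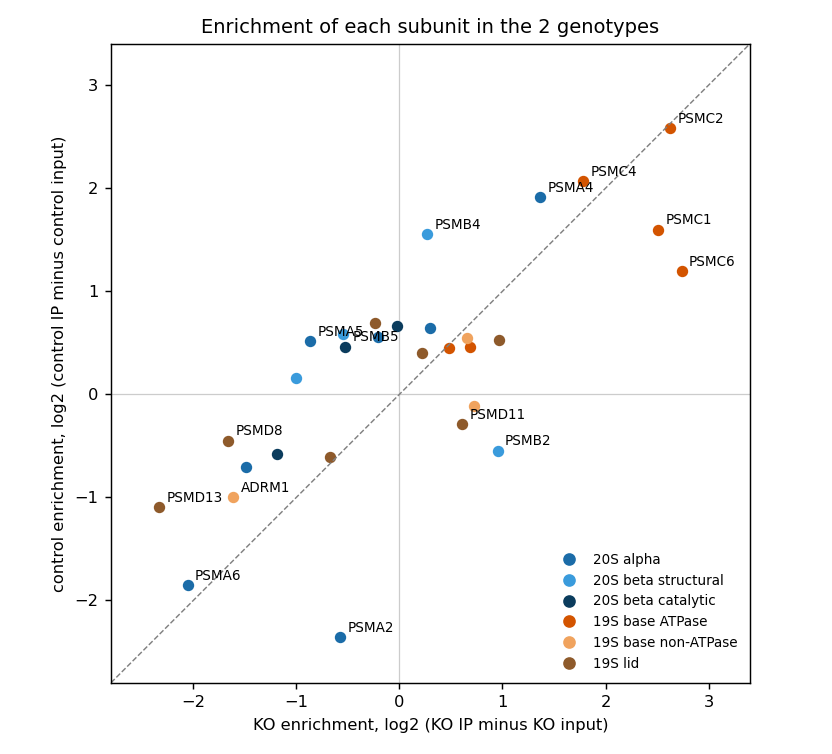
KO enrichment (x axis) against control enrichment (y axis), both log2, for the 30 subunits coloured by role, with the line of equal enrichment dashed. Core subunits such as PSMB4 (0.27 in KO, 1.55 in control) lie mostly on the left of the line, PSMC2 lies close to it, and PSMC6 lies on its right (2.74 in KO, 1.19 in control).

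The direct comparison of the IPs uses the same libraries as the enrichment difference and adds no independent values. In KO IPs against control IPs, 7 subunits were called higher and 14 lower, against 49% of all genes (23% higher, 26% lower). Of the 9646 genes with a mean log2 of at least 3, fitted alone, 2470 were called higher and 3527 lower. Of the core, 2 of 14 were higher and 11 lower, with a median of -0.77, and of the cap, 5 of 16 were higher and 3 lower, with a median of 0.15. The lowest values were those of PSMB4 (-1.52 ± 0.12), PSMB5 (-1.39 ± 0.14) and PSMA5 (-1.37 ± 0.11). The highest were those of PSMA2 (1.87 ± 0.20), PSMC6 (1.2 ± 0.17) and PSMC1 (1.18 ± 0.22). PSMA1 (-0.38 ± 0.13) was not called without control IP 1 (-0.36, adjusted p = 0.0626), control IP 2 (-0.32, adjusted p = 0.0912) or KO IP 2 (-0.32, adjusted p = 0.0722), and PSMC4 was called lower without KO IP 1 (-0.34, adjusted p = 0.0467).

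The input libraries hold the 5' ends before pull-down and stand for the level of the mRNAs. Here 13.3% of the subunits were called, 3 higher in KO inputs and 1 lower, close to the 11.2% of all genes (5.56% higher, 5.67% lower). Of the 9646 genes with a mean log2 of at least 3, fitted alone, 731 were called higher and 800 lower. The median over the 30 subunits was 0.01, with -0.04 for the core and 0.10 for the cap. KO and control inputs did not overlap for 4 subunits higher and 3 lower in KO cells, against 2520 higher and 2560 lower of 16009 genes. Of these subunits, PSMD6 (higher), PSMA3 and PSMB2 (both lower) were not called. PSMD1 had 117, 116 and 106 CPM in KO inputs, against 87.4, 86 and 79.5 CPM in control inputs, with no overlap and a difference of 0.42 ± 0.09 (adjusted p = 0.00466). PSMA7 had 871, 902 and 911 CPM in KO inputs, against 711, 704 and 729 CPM in control inputs, also without overlap, and a difference of 0.32 ± 0.08 (adjusted p = 0.010). ADRM1 had 44, 33.6 and 33.2 CPM in KO inputs, against 27.8, 23.4 and 24 CPM in control inputs, without overlap, and a difference of 0.55 ± 0.17 (adjusted p = 0.0395). It was not called when 1 of the 6 inputs was left out, with values from 0.42 without KO input 1 to 0.63 without control input 1 and adjusted p from 0.0509 without KO input 3 to 0.195 without KO input 1.

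The lid subunit PSMD12 had 99.9, 101 and 115 CPM in KO inputs, against 127, 124 and 134 CPM in control inputs, again without overlap. Its difference of -0.28 ± 0.09 had an adjusted p of 0.0497, and it was not called when 1 library was left out in 9 of 12 cases. Without KO input 1 the difference was -0.25 (adjusted p = 0.159), without KO input 2 -0.26 (adjusted p = 0.14), without control input 1 -0.29 (adjusted p = 0.109), without control input 2 -0.31 (adjusted p = 0.0903) and without control input 3 -0.25 (adjusted p = 0.168). The value stayed at -0.28 without KO IP 2 (adjusted p = 0.056) or without control IP 1, 2 or 3 (adjusted p = 0.0633, 0.0667 and 0.0668), which enter the shared spread only. PSMB2 (-0.54 ± 0.19) and PSMB5 (-0.40 ± 0.14) were not called, but were so without KO input 1 (-0.72 with adjusted p = 0.0263 and -0.56 with adjusted p = 0.0192).

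The input changes of genes near these subunits were read beside them. PSMA7 and ADRM1 both lie at the end of chromosome 20, where the 88 other genes within 5 Mb had a median input change of 0.16, with 11 called higher and 2 lower. Over the 52 genes within 5 Mb of PSMD1 on chromosome 2 the median was -0.0028, with 3 higher and 1 lower, and over the 69 around PSMD12 on chromosome 17 it was -0.06, with 4 higher and 5 lower. The part of such neighbourhoods in the input values of PSMA7 and ADRM1 was not tested.

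PCIF1 acts on A at the first transcribed position, so the annotated first base was set beside the values. By the canonical GENCODE 44 start, 12 of 30 subunits start with A, 16 with G and 2 with C, and 46.1% of 12047 protein-coding genes start with A. The core has 7 of 14 with A and the cap 5 of 16. In the enrichment difference, core subunits starting with A were called higher in 1 case and lower in 6 of 7, with a median of -0.68, and core subunits with another first base higher in 1 and lower in 4 of 7, with a median of -0.78. Cap subunits starting with A were called higher in 1 and lower in 0 of 5, with a median of 0.04, and those with another first base higher in 4 and lower in 3 of 11, with a median of 0.11. The particles thus lay farther apart than the first bases within a particle. Of the 5549 protein-coding genes starting with A, 6.24% were called higher and 27.6% lower, with a median of -0.37, and of the 6498 others, 13.5% were called higher and 13.4% lower, with a median of -0.02.

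The base depends on the start chosen. The subunits starting with A minus the others had a difference of medians of -0.14 in the enrichment difference by the canonical start, 0.06 by the start of the gene record and -0.04 by the RefSeq start, which 25 subunits have. In KO enrichment it was 0.73, -0.48 and 0.09, and in control enrichment 0.36, -0.06 and 0.03, in the same order of starts. The RefSeq start of PSMB5 lies 320 bases before the canonical one, and those of PSMA4, PSMA6 and ADRM1 lie 39, 65 and 101 bases before it. Where transcription began in these cells was not measured at single bases in the table.

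In the promoters 3 motifs were searched. The letters CCGGAAG, the core of sites for ETS family factors, were found on either strand between 250 bases before and 50 bases after the RefSeq start in 8 of 15 cap promoters (PSMC1, PSMC2, PSMC6, PSMD6, PSMD7, PSMD8, PSMD12 and PSMD13) and 0 of 10 core promoters, against 10.7% of 27305 promoters. In the start sequences printed above, it lies at bases -12 to -6 of PSMD13 and, on the other strand, at bases -17 to -11 of PSMD8, counted from the first transcribed base with -1 just before it. Of the 8 subunits with these letters, 3 were called higher, 3 lower and 2 not called in the enrichment difference. The letters TGACNNNGC, the core of the antioxidant response element bound by NFE2L1 and related factors, were found on either strand in 6 of 25 promoters, 1 of 10 in the core (PSMB3) and 5 of 15 in the cap, against 13.6% of all promoters. The letters CA at the last base before and the first base of transcription were found in 6 of 25, against 29.4%. These matches describe the sequence only.

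Some subunits share their start with another gene, and the strand setting of the counting was not stated in the sources used. Of the 30 subunits, 9 have another gene over or within 200 bases of their start or a pseudogene in the table. On the same strand, PSMA1 overlaps ENSG00000256206 (difference -0.44, not called) and PSMA6 overlaps ENSG00000258790 (-0.58, not called). On the opposite strand, PSMD13 starts near SIRT3, which had a difference of -0.17 and was not called, PSMA3 near ARMH4 and PSMC5 near FTSJ3, both with few reads. PSMD7 and PSMD11 have antisense genes that were not analysed here. Over the 21 subunits without such a neighbour, 4 were called higher and 10 lower in the enrichment difference, and the difference of medians between core and cap was -0.93.

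The wider pathway was read from lists chosen with earlier results of these data known. Of 8 alternative caps, inhibitors and immunoproteasome subunits, 0 were called higher and 1 lower in the enrichment difference, against 13% higher and 15.8% lower of all genes, with a median of -0.35. The lower one was PSMB9, an inducible catalytic subunit that replaces PSMB6 in the immunoproteasome, with 41.3, 50.7 and 52.7 CPM in KO IPs and 37.7, 35.8 and 30.3 CPM in KO inputs, against 113, 118 and 125 CPM in control IPs and 40.9, 42 and 37.7 CPM in control inputs. Its control IPs stood above all other libraries, and its difference was -1.08 ± 0.17 (adjusted p = 9.50e-05). Of 9 assembly factors, 1 was called higher and 2 lower, against 28.8% of all genes in either direction, with a median of -0.04: the 19S base chaperone PSMD10 (-0.87 ± 0.22) and the 20S chaperone PSMG4 (-0.46 ± 0.16) were less enriched in KO cells, and the 20S chaperone PSMG2 (0.45 ± 0.13) more.

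Of 14 associated factors and regulators, 0 were called higher and 5 lower in the enrichment difference, against 13% higher and 15.8% lower of all genes, with a median of -0.32. NGLY1, the glycanase that processes NFE2L1, had a difference of -1.0 ± 0.18, and DDI2, the protease that cleaves NFE2L1, one of -0.99 ± 0.19. NFE2L1 itself was not called (-0.31 ± 0.13). The proteasome-bound ubiquitin ligase UBE3C (-0.72 ± 0.14) and the deubiquitinase USP14 (-0.45 ± 0.13) were also less enriched in KO cells. VCP was not analysed here. Of 5 genes for ubiquitin and its activating enzymes, 1 was called higher and 2 lower, against the same shares of all genes, with a median of -0.51. The polyubiquitin gene UBB (-1.1 ± 0.22) and the activating enzyme UBA1 (-0.97 ± 0.17) were less enriched in KO cells. RPS27A, which encodes ubiquitin fused to a ribosomal protein, was more enriched, by 1.77 ± 0.13 (adjusted p = 3.14e-08), and the median over the 77 ribosomal protein mRNAs was 0.56.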

How the data were processed

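Start fragments were measured by sequencing in 12 libraries of 4 groups. The deposited table holds log2 CPM per gene and library on hg38. The submitters' processing notes name edgeR 3.12.1, R 3.3.3, featureCounts and HISAT2 2.0.4 among the tools. How wide the start windows were, and with which annotation and strand setting they were counted, was not stated in the sources used. An added count of 0.25, scaled to library size, returned whole reads for 100% of deposited log2 values within 0.01, and log2 differences understate change where reads are few. Reads are not independent molecules.

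The labels name replicates by letter and the columns by number, and nothing ties them, so columns were assigned to groups only. In R 4.3.3, limma 3.58.1 with a mean-variance trend fitted 4 group means over the 12 libraries and 5 contrasts, which were control enrichment, KO enrichment, their difference, and the KO minus control differences of inputs and of IPs. A filter (log2 of 0 or more in 3 or more libraries) left all 16009 genes. The fit was tested on simulated data. Alternatives were median and ribosomal protein centring, a mean log2 of at least 3, no filter, an added count of 2, no trend, voom on recovered reads, the groups of a contrast alone, a block by column number, leaving out each library, and other start definitions.

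Names and starts come from GENCODE 44 and promoters from RefSeq (GRCh38.p14), with 25 of 30 subunits matched. The members and lists were chosen with earlier results of these data known. Library values were given for the 3 called subunits with the largest change each way per contrast and the catalytic subunits, and other lists were limited to 4 genes by adjusted p. Core and cap were compared by counts and medians only, since members are not replicates. Some genes of the wider lists are not reported here.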

Additional observations from a re-analysis of the deposited data

Results flagged for a closer look

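The contrast between IP and input differed between KO and control cells, by the limma test of the difference itself (adjusted p under 0.05), for 20 of 30 proteasome subunits. By the same test it differed for 28.8% of all genes. Of the 9646 genes with a mean log2 of at least 3, fitted alone, 1734 were called higher and 2596 lower. Values are the enrichment difference on the log2 scale. In the alpha subunits of the core it was -1.38 for PSMA5, -0.78 for PSMA7, -0.77 for PSMA3, -0.54 for PSMA4 and 1.78 for PSMA2. In the beta subunits it was -1.28 for PSMB4, -1.16 for PSMB3, -1.13 for PSMB1, -0.99 for PSMB5, -0.68 for PSMB6, -0.61 for PSMB7 and 1.5 for PSMB2. In the base of the cap it was 1.54 for PSMC6, 0.92 for PSMC1 and 0.83 for PSMD4. In the lid it was -1.23 for PSMD13, -1.21 for PSMD8, -0.93 for PSMD7, 0.90 for PSMD11 and 0.44 for PSMD12. No group had 4 or more libraries, so that no test for outlying libraries was run, and replicates were compared in pairs only.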

How the results depend on the processing

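Over 30 subunits and 5 contrasts, 1747 of 1800 values stayed on their side of the threshold when 1 library was left out, 43 lost and 10 gained a call, and 36 that were called neither way changed sign. Of 150 values each, 147 stayed on their side with an added count of 2, 143 with median centring (5 uncalled changed sign), 144 with a mean log2 of at least 3, 140 without trend, 146 with voom (1 uncalled changed sign) and, of 120, 115 with the groups of the contrast alone. The filter left all 16009 genes, so that the fit with no filter was the main fit again and its 150 values could not move. The block by column number left 145 and added 5 calls. That block joins KO and control libraries of the same number, so it is not a pairing of IP and input within a genotype. Same-numbered IP and input deviated together with r = 0.197, 0.0697 and 0.244 in KO cells and 0.161, 0.0894 and 0.226 in control cells, each the best match, which is a hint only; no label ties the numbers. With the replicate block, KO enrichment had 15 subunits called higher, against 12 without it, and the input change had 3 lower, against 1; its other counts were the same.

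Centring on ribosomal protein mRNAs moved the counts of called subunits most: control enrichment 2 lower, KO enrichment 7 lower, enrichment difference 3 higher and 22 lower, IP change 23 lower, and input change 0 lower. It changed the sign of 29 values, of which 6 were called neither before nor after, PSMC5 in the enrichment difference (-0.34) and 5 input changes. The other 23 were called before or after. In control enrichment these became 0.48 (PSMA7), 0.64 (PSMB2), 0.61 (PSMB7), 1.07 (PSMD4), 0.19 (ADRM1), 0.58 (PSMD6), 0.74 (PSMD8), 0.90 (PSMD11) and 0.087 (PSMD13), and in KO enrichment 0.040 (PSMA2), 0.40 (PSMA3), 0.072 (PSMB1), 0.093 (PSMB5), 0.60 (PSMB6) and 0.38 (PSMD7). In the enrichment difference they became -0.52 (PSMC2), -0.53 (PSMC3), -0.46 (PSMD1) and -0.13 (PSMD12), and in the IP change -0.37 (PSMC3), -0.38 (PSMC5), -0.37 (PSMD6) and -0.37 (PSMD12). Centring of this kind shifts all genes of a contrast by the same amount by construction. Among called subunits in the input change, the 1 lower became 0 with median centring and without trend, 2 with an added count of 2, and 3 with a mean log2 of at least 3 and with voom; the cause was not tested.

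The difference of medians by first base A moved with the gene record and RefSeq starts to -0.057 and 0.025 in control enrichment, -0.48 and 0.085 in KO enrichment, 0.056 and -0.036 in the enrichment difference, and -0.18 and -0.084 in the IP change. Settings chosen after seeing the data were the difference of means, which gave core minus cap as -0.36 in control enrichment, -0.87 in KO enrichment, -0.50 in the enrichment difference and -0.70 in the IP change, and leaving out subunits with neighbours, which by construction counts fewer, with 6 lower in control enrichment, 4 higher in the enrichment difference and 4 higher in the IP change, and moved core minus cap to -0.93 in the enrichment difference and -1.18 in the IP change. Leaving out 1 library, core minus cap ranged from -1.18 to -1.08 in KO enrichment and from -0.81 to -0.68 in the enrichment difference, and the lower calls of the input change from 0 to 2. The difference by first base ranged from 0.34 to 0.42 in control enrichment, 0.65 to 0.79 in KO enrichment, -0.19 to -0.031 in the enrichment difference, -0.17 to -0.055 in the input change and -0.35 to -0.15 in the IP change. KO IPs hold the fewest reads, and the fit gives all groups of a gene 1 spread.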

Other observations

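In the inputs, the deubiquitinase USP14, which trims ubiquitin at the 19S cap, had 74.4, 70.4 and 82.3 CPM in KO inputs, against 172, 153 and 156 CPM in control inputs, a difference of -1.08 ± 0.09 (limma adjusted p = 1.46e-07). The 20S assembly chaperone PSMG2 had 128, 136 and 119.9 CPM in KO inputs, against 196, 203 and 196 CPM in control inputs, a difference of -0.63 ± 0.09 (adjusted p = 1.36e-04). Both lie on chromosome 18. Within 5 Mb, the 25 other genes around USP14 had a median input change of -0.81, with 12 called lower and 1 higher, and the 46 around PSMG2 had a median of -0.81, with 28 called lower and 1 higher, while the median over the chromosome was 0.26. The proteasome inhibitor PSMF1 had 161, 140.3 and 124 CPM in KO inputs, against 212, 208 and 204 CPM in control inputs, a difference of -0.56 ± 0.13 (adjusted p = 0.00703), and the 68 other genes within 5 Mb on chromosome 20 had a median of -0.64, with 33 called lower and 1 higher. The shuttle ubiquitin receptor UBQLN2 had 22.2, 17.1 and 25.4 CPM in KO inputs, against 48.7, 53 and 42.1 CPM in control inputs, a difference of -1.16 ± 0.15 (adjusted p = 3.23e-05), while the 34 other genes within 5 Mb on chromosome X had a median of -0.17, with 2 called lower and 4 higher. The 20S chaperone PSMG4 had 178, 157 and 159.9 CPM in KO inputs, against 117, 135 and 130 CPM in control inputs, a difference of 0.37 ± 0.11 (adjusted p = 0.038), with a median of 0.10 over the 46 genes around it on chromosome 6. The part of such neighbourhoods in these values was not tested.

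The marker CD68, which is expressed by macrophages and also by melanoma cells, had 128, 131 and 108 CPM in KO IPs and 144, 114 and 91 CPM in KO inputs, against 249.7, 266 and 243 CPM in control IPs and 152, 145 and 150.4 CPM in control inputs. MITF had 4.0, 3.0 and 5.8 CPM in KO IPs and 10.7, 10.4 and 9.17 CPM in KO inputs, against 11.5, 12.9 and 11.5 CPM in control IPs and 14, 8.55 and 8.25 CPM in control inputs, and PDGFRB had 17.7, 19.6 and 13.8 CPM in KO IPs and 11.6, 11.7 and 5.6 CPM in KO inputs, against 42, 44.9 and 35.4 CPM in control IPs and 16.2, 17.3 and 12.9 CPM in control inputs. All 3 had lower values in KO IPs than in control IPs. In the inputs, PDGFRB was also called lower in KO cells, barely (-0.75, limma adjusted p = 0.04999). CD68 (-0.38, adjusted p = 0.0562) and MITF (0.01, adjusted p = 0.987) were not called there. The part of these markers in the values of the subunits was not tested.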
